A study of Mus musculus with 8 samples.

Results

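The genes described are 10 NK cell receptors and regulators: Klrb1c, Ncr1, Klrd1, Klrk1, Klre1, Klrg1, Cd160, Eomes, Tbx21 and Il2rb. They were chosen by symbol, as every probe of the array that names a member, which gave 18 probes of the 56605 gene probes and 10 of 26866 genes. Total RNA of whole liver from female NFS/sld mice was measured on 1-colour Agilent arrays. The Tx group (4 arrays) had its thymus removed on day 3 after birth and was sampled 8 weeks after that surgery, as a model of primary Sjögren's syndrome, in which the immune system attacks the glands that make saliva and tears. The nonTx group (4 arrays) was female NFS/sld mice with the thymus left in place, and the labels give for it neither an age nor a sham operation. Both groups carry the sld background, and the labels name no transgene or drug. The replicates are called independent without being tied to single animals, and p-values therefore cover the spread between these samples, which may be technical. The comparison asks how liver transcripts differ without a thymus from early life on.

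NK cells are lymphocytes that kill infected or transformed cells without a rearranged antigen receptor and that do not need the thymus for their main pathway of development. The liver is rich in them, and it also holds resident type 1 innate lymphoid cells (ILC1), which share most NK receptors. Activation is set by the balance of receptors such as Klrk1 (NKG2D) and Ncr1 (NKp46) against inhibitory lectin-like receptors that read MHC class I. Tbx21 (T-bet) and Eomes direct maturation, with Eomes marking conventional NK cells rather than ILC1, and Il2rb carries the IL-15 signal for survival. Il2rb, Klrd1, Klrk1, Klrg1, Cd160, Eomes and Tbx21 are also used by subsets of T cells.

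Of the members, 5 (Klrb1c, Klrd1, Klrk1, Klre1 and Klrg1) lie on chromosome 6, where Klre1, Klrd1 and Klrk1 are consecutive coding genes in RefSeq. Ncr1 is on chromosome 7, Cd160 on 3, Eomes on 9, Tbx21 on 11 and Il2rb on 15. RefSeq promoter sequences (GRCm38.p6, 250 bases before to 50 after a start, 300 in all) were found for 7 of the 10 members, and Il2rb, Klrd1 and Klrg1 are named only. The promoters of the 4 members that were both measured and found are shown. By their brightest probes and with the group difference included, Klrb1c, Klrk1 and Tbx21 varied together across arrays. Ncr1 followed the other tested members least closely. Capitals mark the letters TGTGGT or ACCACA (a RUNX motif) and GGAAGT or ACTTCC (an ETS motif), on either strand.
Klrb1c, chr6:128788592-128788891, strand -: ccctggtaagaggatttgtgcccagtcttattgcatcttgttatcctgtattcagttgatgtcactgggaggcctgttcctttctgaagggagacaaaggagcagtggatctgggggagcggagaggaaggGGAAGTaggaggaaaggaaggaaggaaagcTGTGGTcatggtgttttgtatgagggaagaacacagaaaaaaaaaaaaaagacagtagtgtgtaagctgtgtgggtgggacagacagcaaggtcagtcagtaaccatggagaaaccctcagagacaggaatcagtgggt
Klrk1, chr6:129623815-129624114, strand -: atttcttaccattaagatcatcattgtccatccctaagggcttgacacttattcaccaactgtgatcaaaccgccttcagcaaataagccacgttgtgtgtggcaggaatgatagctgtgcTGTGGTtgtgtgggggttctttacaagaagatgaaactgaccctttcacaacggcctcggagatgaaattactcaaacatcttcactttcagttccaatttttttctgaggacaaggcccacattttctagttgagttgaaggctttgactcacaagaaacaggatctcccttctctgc
Ncr1, chr7:4337465-4337764, strand +: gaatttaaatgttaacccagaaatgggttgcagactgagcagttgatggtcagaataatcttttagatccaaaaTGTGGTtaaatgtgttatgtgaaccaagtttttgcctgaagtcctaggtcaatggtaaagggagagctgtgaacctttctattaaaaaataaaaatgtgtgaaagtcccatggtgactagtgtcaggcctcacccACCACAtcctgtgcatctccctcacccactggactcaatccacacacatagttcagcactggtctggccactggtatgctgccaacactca
Tbx21, chr11:97115282-97115581, strand -: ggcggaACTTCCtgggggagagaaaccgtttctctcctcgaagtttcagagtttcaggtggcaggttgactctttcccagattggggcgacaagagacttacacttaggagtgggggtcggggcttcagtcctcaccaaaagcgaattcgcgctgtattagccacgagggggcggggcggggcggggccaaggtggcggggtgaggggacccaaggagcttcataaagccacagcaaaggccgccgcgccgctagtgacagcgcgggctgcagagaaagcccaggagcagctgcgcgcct
The RUNX letters stood once in the Klrb1c and Klrk1 windows and at 2 places in the Ncr1 window, against 16.8% of all 32851 promoters of this length with a match. The ETS letters stood once in the Klrb1c and once in the Tbx21 window, against 23.8% of all promoters. The T-box letters GGTGTG or CACACC (19% of promoters) and the STAT letters TTCNNNGAA (8.3%) were in none of these 4 windows. A match is a description of letters and not a bound site.

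In Tx livers the mean log2 signal of Il2rb, Tbx21 and Klrd1 corresponded to levels 1.81-, 1.5- and 1.36-fold below those of nonTx livers (n = 4 per group). Klrb1c also had a lower Tx mean, but it was well above background on all 4 nonTx arrays and only 1 Tx array, so the size of its difference rests on dim signals. The sizes for Tbx21 and Klrd1 also depended on how background was handled. With another correction (normexp) their log2 differences were -0.12 and -0.18, and that of Il2rb was -0.61. Klrk1 and Ncr1 differed by less than their standard errors, and Klre1, Cd160 and Eomes were at background in both groups. None of the tested members passed the threshold after adjustment.

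Of the 10 genes, 7 had a probe well above background on at least 1 array and 6 (9 probes) entered the test, which asked for a signal well above background on at least 3 of the 4 arrays of a group. Klrb1c and Ncr1 entered through the nonTx arrays alone, so counts over the tested members describe them and support no direction. In limma's fit over all 30952 tested probes with Benjamini-Hochberg adjustment, 0 of the 9 member probes passed the threshold of 0.05, and 0 probes in the whole table did (0%), with 4090 probes at an unadjusted p under 0.05 and a smallest adjusted p of 0.0589. With each gene taken by its brightest tested probe, the Tx mean was below the nonTx mean in 5 of the 6 tested members, against 43.7% of all 16495 tested genes. An unadjusted p under 0.05 with the Tx mean below was found for 4 of the 6 (Il2rb, Klrd1, Klrb1c and Tbx21), against 5.26% of all tested genes, and with the Tx mean above for 0 of the 6, against 8.67%. All Tx arrays lay below all nonTx arrays for 2 of the 6 (Klrd1 and Klrb1c), against 2.94% of all tested genes, and above them for 0 of the 6, against 5.13%. The median log2 difference, Tx minus nonTx, was -0.51 over the 6 members and 0.03 over all tested genes. In whole liver, fewer cells of a type and less RNA per cell cannot be told apart.

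**Figure D1:**
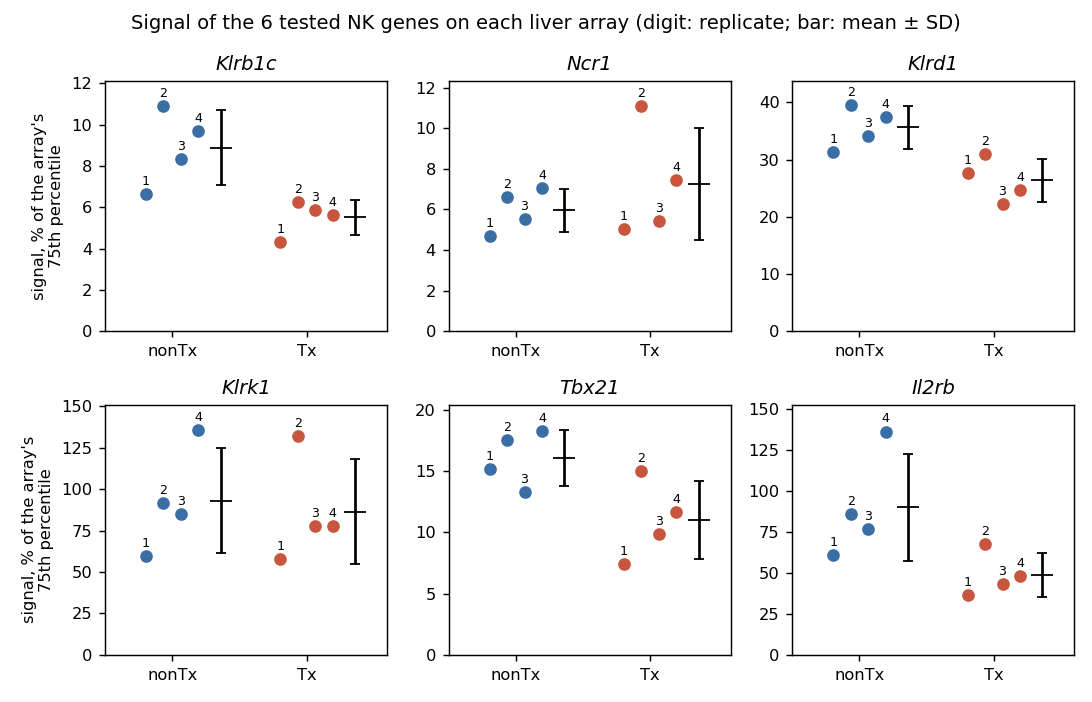
Signal of the 6 tested NK genes (vertical axis, percent of the array's 75th percentile; each panel starts at 0) on the 4 nonTx and 4 Tx arrays; digits are replicate numbers and bars are mean ± SD (n = 4). The Tx arrays lie below every nonTx array for Klrb1c and Klrd1, and Tx replicate 2 is the highest Tx array in every panel.

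Klrd1 encodes CD94, the partner chain of the NKG2 receptors that read the MHC class I-like molecule Qa-1. As a percent of each array's 75th percentile (the relative signal, used throughout), its probe read 31.24, 39.62, 34.07 and 37.5 on the 4 nonTx arrays and 27.57, 31.0, 22.23 and 24.68 on the 4 Tx arrays, each in order of replicate, as in all such lists here. The groups did not overlap, although Tx replicate 2 came close to nonTx replicate 1, the lowest of its group. The means were 35.6 ± 3.70 in nonTx and 26.4 ± 3.78 in Tx (SD, n = 4). The log2 difference was -0.44 ± 0.14 (SE), 1.36-fold lower in Tx, with an adjusted p of 0.314 in limma's fit and a 95% interval from -0.75 to -0.12. These intervals are for single probes and are not adjusted over the table.

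Klrb1c encodes the receptor known as NK1.1 in strains that carry the antigen. Its brighter tested probe read 6.647, 10.89, 8.343 and 9.682 in nonTx and 4.314, 6.28, 5.849 and 5.629 in Tx. Every Tx array was below every nonTx array, and the probe was well above background on 4 nonTx arrays but only 1 Tx array. The log2 difference was -0.68 ± 0.23 (limma adjusted p = 0.318; 95% interval -1.19 to -0.16). The other tested probe differed by -0.72 ± 0.32 (adjusted p = 0.375) with overlapping groups, since Tx replicate 3 at 7.076 was above nonTx replicate 3 at 6.117. The third probe of the gene was well above background on no array.

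Klrk1 encodes NKG2D, the activating receptor for stress-induced ligands. Its relative signal was 59.58, 91.87, 85.12 and 135.7 in nonTx and 58.13, 131.9, 77.51 and 77.94 in Tx. The ranges almost coincided, with 1 high array in each group (nonTx replicate 4 and Tx replicate 2). The log2 difference was -0.11 ± 0.28 (limma adjusted p = 0.876), and its 95% interval, -0.74 to 0.51, leaves room for a change in either direction. A dimmer probe of the gene gave -0.27 ± 0.33 (adjusted p = 0.722).

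Ncr1 encodes NKp46, an activating receptor found on nearly all NK cells and on few others. Its probe read 4.686, 6.588, 5.508 and 7.035 in nonTx and 5.024, 11.08, 5.411 and 7.453 in Tx. Tx replicates 2 and 4 were above every nonTx array and the other two lay within the nonTx range. The log2 difference was 0.23 ± 0.29 (limma adjusted p = 0.733; 95% interval -0.42 to 0.87), the only tested member with a higher Tx mean. The probe was well above background on 3 nonTx arrays and 1 Tx array, so it stands close to the limit of measurement. Without Tx replicate 2 the difference was 0.00 (-0.0019).

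The inhibitory receptor Klrg1, which marks mature NK and effector T cells, had a pair of probes near background. For the first, relative signals were 3.807, 6.96, 2.826 and 2.541 in nonTx and 6.882, 4.078, 4.801 and 4.404 in Tx, above background on 1 array of each group. The other was above background on 0 nonTx arrays and 1 Tx array, with overlapping groups, and no fold was drawn from it. Klre1, which pairs with inhibitory or activating Klri chains, and Cd160, a receptor for the TNF receptor family member HVEM, were well above background on no array with any of their probes (3 and 1). No level or fold was drawn from them.

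Tbx21 and Eomes are the T-box factors of the group. Tbx21 read 15.19, 17.51, 13.3 and 18.28 in nonTx and 7.44, 14.97, 9.866 and 11.61 in Tx. The groups overlapped through Tx replicate 2, which was above nonTx replicate 3 alone. The means were 16.1 ± 2.27 and 11.0 ± 3.17 (SD, n = 4), a log2 difference of -0.59 ± 0.23 (1.5-fold lower; limma adjusted p = 0.345; 95% interval -1.09 to -0.08). Both Eomes probes were well above background on no array of either group, so the defining factor of conventional NK cells gave no measured level in these livers.

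Il2rb encodes the receptor chain shared by IL-2 and IL-15, and it had the largest difference of the 6 tested members. Its brighter probe read 60.92, 85.77, 76.81 and 136.2 in nonTx and 36.27, 67.45, 43.31 and 48.33 in Tx. The groups overlapped through Tx replicate 2 against nonTx replicate 1 alone, and nonTx replicate 4 stood highest. The means were 89.9 ± 32.5 and 48.8 ± 13.4 (SD, n = 4), a log2 difference of -0.85 ± 0.25, 1.81-fold lower in Tx (limma adjusted p = 0.296; 95% interval -1.42 to -0.29). The second probe gave -0.76 ± 0.27 (adjusted p = 0.324).

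**Figure D2:**
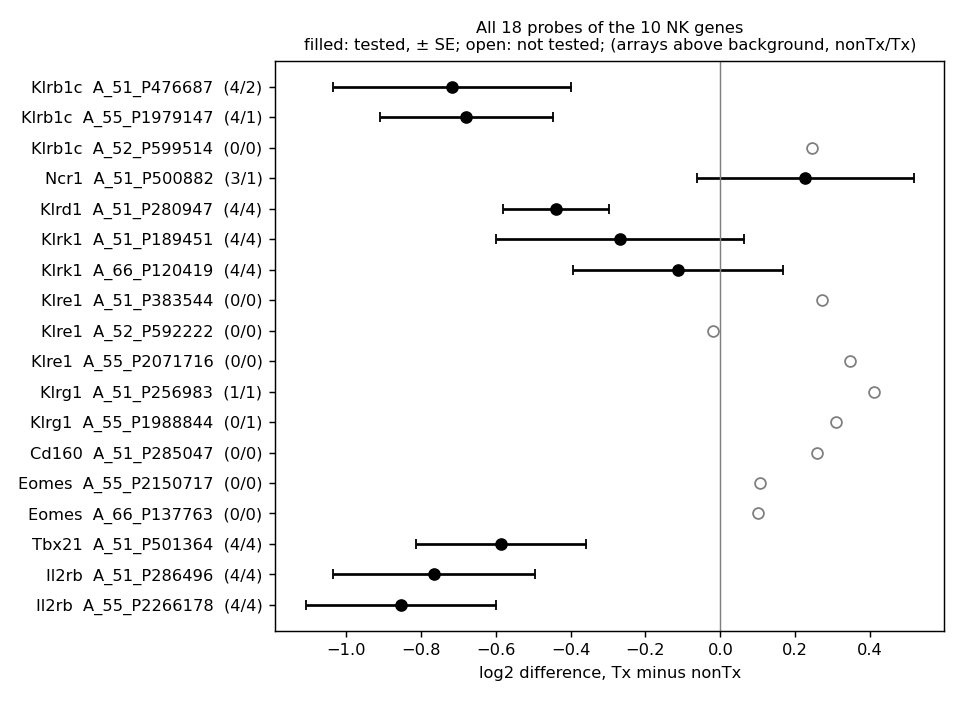
Log2 difference, Tx minus nonTx (horizontal axis), of all 18 probes of the 10 genes; filled points with ± SE were tested, open points were not, and brackets give the arrays well above background (nonTx/Tx). Both tested probes of Il2rb, Klrb1c and Klrk1 lie below 0, and the open points are signals near background.

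Taken by their brightest tested probes, most of the 6 members shared the highest and lowest array of each group. Tx replicate 2 was the highest Tx array for 6 of 6 members and Tx replicate 1 the lowest for 5. In nonTx, replicate 4 was highest for 4 members and replicate 1 lowest for 5. Other probes did not all follow. The other tested Klrb1c probe read 5.334, 4.68, 7.076 and 2.56 in Tx, highest on replicate 3 and lowest on replicate 4. The second Il2rb probe was highest on Tx replicate 2 but lowest on Tx replicate 4 (12.12). The dimmer Klrk1 probe kept Tx replicate 2 highest and Tx replicate 1 lowest. The log2 deviations from the mean of all 8 arrays ran from -0.82 (Il2rb) to -0.14 (Klrd1) on Tx replicate 1, and from -0.14 (Klrb1c) to 0.80 (Ncr1) on Tx replicate 2. The 75th percentiles used for scaling were 301.9, 275.98, 289.12 and 274.24 for nonTx and 330.01, 249.75, 230.31 and 225.03 for Tx, in order of replicate. The arrays with the highest percentile of their group, nonTx 1 and Tx 1, also had the lowest signal of their group for 5 of the 6 members, and the part of array brightness in the pattern was not tested. As a description, each member's correlation over the 8 arrays with the mean of the other tested members was 0.91 for Il2rb, 0.88 for Tbx21, 0.80 for Klrb1c, 0.78 for Klrk1, 0.74 for Klrd1 and 0.41 for Ncr1. These points share their scaling, their slide and the group difference.

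**Figure D3:**
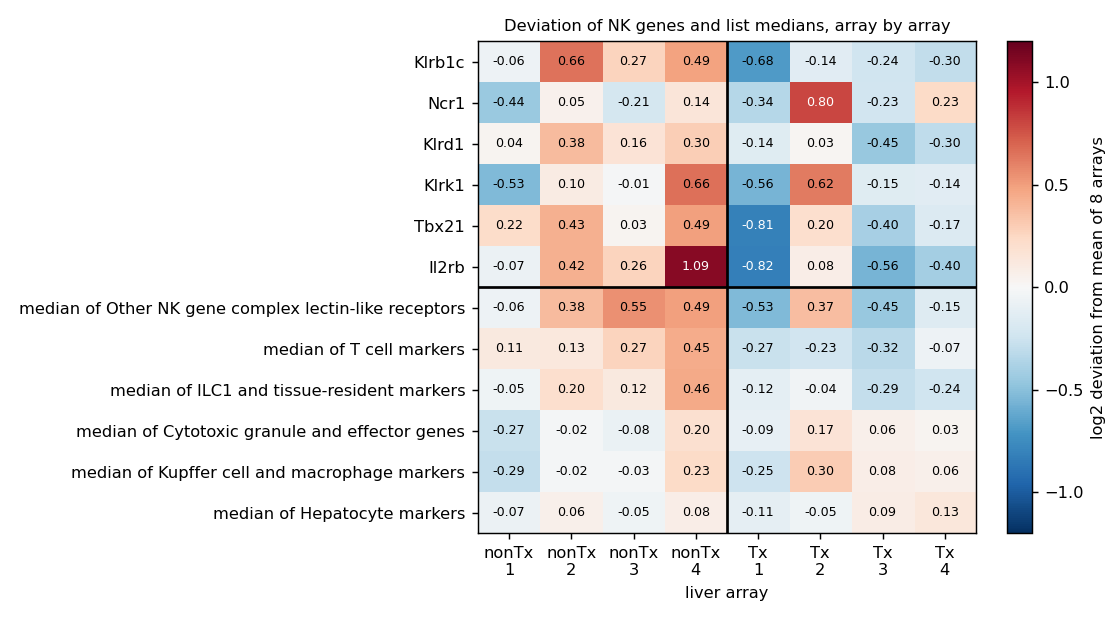
Log2 deviation from the mean of the 8 arrays (colour and printed value) for the 6 tested NK genes (upper block) and for the median of 6 gene lists (lower block), array by array. Members are mostly red on nonTx 2 and 4 and mostly blue on Tx 1 and 3, with Ncr1 (0.80) and Klrk1 (0.62) red on Tx 2.

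Among 16477 other genes with a value on every array, the profiles most like the mean of the tested members were those of Sash3 (r = 0.975), Cd74 (0.973), 4930597A21Rik (0.968), Ifi205 (0.965), Vmn2r43 (0.961), Lck (0.960), Ctsw (0.956), Ciita (0.953), Fgr (0.952) and Tbc1d9 (0.951), over 8 arrays. Sash3 is a lymphocyte adaptor, Lck a kinase of T and NK cells and Ctsw a protease of cytotoxic lymphocytes. Cd74 and Ciita belong to MHC class II presentation. Their own log2 differences ran from -0.89 ± 0.48 (Ciita) to -0.20 ± 0.23 (Fgr), with limma adjusted p of 0.432 and 0.696.

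The other lectin-like receptors of the NK gene complex were mostly at background: of 25 genes on the array, 17 were well above background on no array and 5 could be tested. The Tx mean was below the nonTx mean in 5 of these 5, against 43.7% of all tested genes, with a median of -0.39. Under normexp background correction it was below in 4 of 5, with a median of -0.06. Klra4 entered the test through the nonTx arrays alone, so these counts support no direction. Klra1, of the Ly49 family of MHC class I receptors, read 187, 156.5, 197.7 and 201.6 in nonTx and 83.12, 151.8, 26.93 and 107.9 in Tx. The groups did not overlap, Tx replicate 2 lying just under nonTx replicate 2, and the log2 difference was -1.25 ± 0.43 (limma adjusted p = 0.322). Its relatives Klra9 (-0.72 ± 0.35) and Klra22 (-0.39 ± 0.18) had adjusted p of 0.399 and 0.38. Ly49 genes are close in sequence, and whether these probes tell them apart was not tested.

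Signalling adaptors and other NK receptors were divided, with 11 of 17 tested genes lower and 6 higher in Tx by their means (median -0.12, and 0.01 with normexp background correction). Over all 16495 tested genes, 7215 had a lower and 9280 a higher Tx mean (median 0.03), which stands beside this and the later list counts. The kinase Txk read 12.59 to 15.58 in nonTx and 5.224 to 11.41 in Tx, with no overlap and a log2 difference of -0.95 ± 0.24 (limma adjusted p = 0.282). It was well above background on 4 nonTx arrays and 2 Tx arrays and so entered the test through nonTx alone. Cd96, a receptor of the nectin-binding group, was above background on 3 nonTx arrays and 0 Tx arrays, which bounds it at no less than 1.03-fold lower in Tx (fitted adjusted p = 0.314). Cd244a (2B4) gave -0.77 ± 0.24 (adjusted p = 0.307) on its brighter probe and -0.05 on the other. Tyrobp and Hcst, the adaptors through which Klrk1 and other activating receptors signal, were looked up after their values were seen and gave 0.09 ± 0.21 and -0.24 ± 0.17 (adjusted p = 0.87 and 0.515).

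Of the ligands that NK receptors read, 10 of 15 tested genes had a lower and 5 a higher Tx mean (median -0.05, and 0.05 with scaling to the array median). Clec2d, the ligand of inhibitory Klrb1 receptors, read 2186, 1959, 2110 and 1723 in nonTx and 3933, 3462, 2554 and 3587 in Tx. Every Tx array was above every nonTx array, at 0.75 ± 0.14 (limma adjusted p = 0.152) and 0.72 on the other probe. H60b, a Klrk1 ligand, did not overlap in the opposite direction, at -0.44 ± 0.19 (adjusted p = 0.362), and Clec2i gave -0.31 ± 0.17 (adjusted p = 0.435).

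In the IL-2 and IL-15 axis around Il2rb, 7 of 18 tested genes had a lower and 11 a higher Tx mean (median 0.02, and -0.21 with scaling to the spike-in RNAs). A lower Tx mean was found for 43.7% of all tested genes. Il18r1, the receptor through which IL-18 activates NK cells, read 15.24, 17.4, 13.65 and 20.28 in nonTx and 9.292, 4.888, 6.484 and 7.408 in Tx. The groups did not overlap, at -1.27 ± 0.23 (limma adjusted p = 0.152), but the probe was well above background on 4 nonTx arrays and 2 Tx arrays and entered the test through nonTx alone. Stat5a, which carries the signal of Il2rb to the nucleus, gave 1.36 ± 0.20 (adjusted p = 0.0848) on its brighter probe and -0.27 on the other. Il15ra, which presents IL-15, gave 1.14 ± 0.33 (adjusted p = 0.296) on its brightest probe and -0.17 on the lowest of 3. The partner chain Il2rg, looked up after its value was seen, gave 0.03 ± 0.19 (adjusted p = 0.947).

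Of other NK and ILC1 transcription factors, 12 of 16 tested had a lower and 4 a higher Tx mean (median -0.14). With scaling to the array median 8 of 16 were lower (median -0.04), and with spike-in scaling 16 of 16 (-0.38). Ikzf3, an Ikaros family factor of lymphocytes, gave -1.10 ± 0.24 on its brightest probe with no overlap (limma adjusted p = 0.232), yet its 3 tested probes ran from -1.10 to 0.24. Gata3, a factor of T cells and innate lymphoid cells, gave -0.79 ± 0.34 (adjusted p = 0.365), and Kmt2a, a histone methyltransferase, -0.32 ± 0.14 (adjusted p = 0.369).

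**Figure D4:**
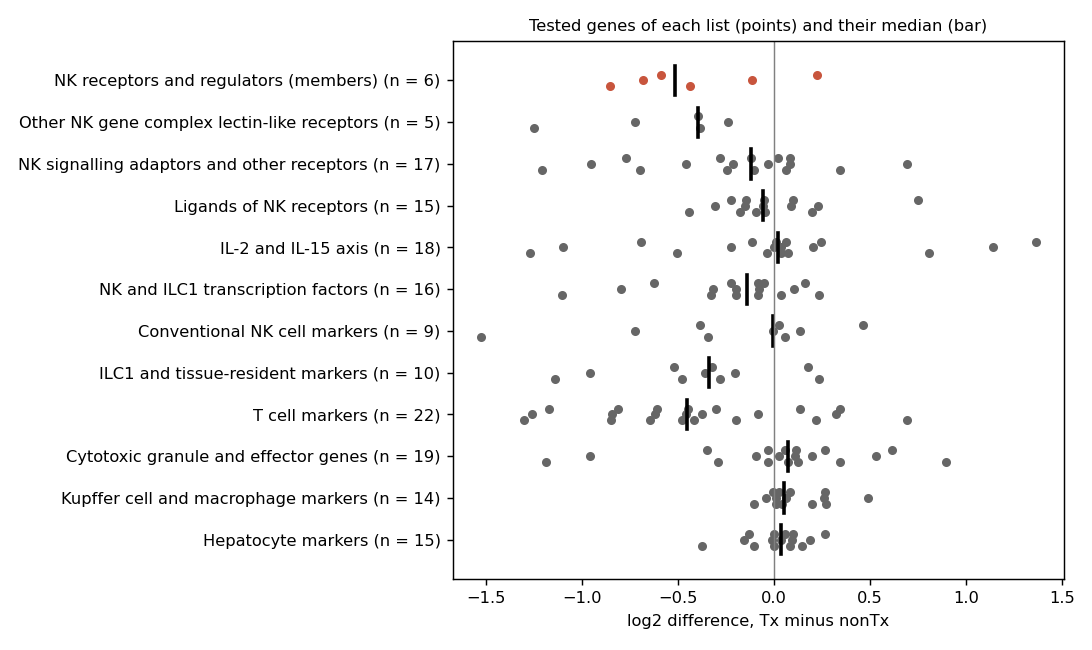
Log2 difference, Tx minus nonTx (horizontal axis), of each tested gene (points) in the NK genes (red, n = 6) and in 11 other lists (grey, n in brackets), with the median as a bar. The member median is -0.51, the T cell list's -0.45 and the hepatocyte list's 0.04.

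Conventional NK cell markers had 5 of 9 tested genes with a lower and 4 with a higher Tx mean (median 0.00, with -0.24 under spike-in scaling, 0.10 under median scaling and -0.25 without Tx replicate 3). Itga2 (DX5) and Klra8 of this list were well above background on no array, and whether their probes match the sequence of NFS/sld mice was not tested. The smallest p of the list belonged to Spn (-0.34 ± 0.12, no overlap), Itgam (-1.52 ± 0.53, and -0.65 on its other probe), which macrophages and neutrophils also express, and Klra9, with limma adjusted p of 0.322, 0.324 and 0.399. ILC1 and tissue-resident markers had 8 of 10 with a lower Tx mean (median -0.34, from -0.58 with spike-in scaling to -0.12 with normexp). An unadjusted p under 0.05 was found for 4 of them, against 5.26% of all tested genes, and 3 had no overlap, against 2.94%. These 3 were Cxcr6 (-0.96 ± 0.18, adjusted p = 0.168), which holds lymphocytes in the sinusoids, Rgs1 (-1.14 ± 0.24, 0.219) and Inpp4b (-0.52 ± 0.17, 0.313). Cxcr6 read 101.6, 106.7, 94.9 and 116.7 in nonTx and 39.41, 68.79, 46.93 and 66.25 in Tx, and T and NKT cells also use it. Cd200r1, among the 8 ILC1 markers with a lower Tx mean, entered the test through the nonTx arrays alone. Of NKT and gamma-delta T cell markers, 2 of 6 tested had a lower and 4 a higher Tx mean (median 0.05, and -0.19 with spike-in scaling). The smallest p of this list was again that of Cxcr6, lower in Tx. Next came Zbtb16, the factor of NKT cells, at 0.93 ± 0.38 (adjusted p = 0.358), and Slamf6 at -0.46 ± 0.29 (0.485).

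T cell markers had lower means beside the members. Of 22 tested, 17 had a lower Tx mean (median -0.45, from -0.69 with spike-in scaling to -0.12 with normexp). Of these, 13 had an unadjusted p under 0.05, against 5.26% of all tested genes, and 7 had no overlap, against 2.94%, led by Cd3d (-1.17 ± 0.14, limma adjusted p = 0.0589) and Thy1 (-0.85 ± 0.16, 0.164). Lef1 and Lat, among the 13, and Cd8a and Cd8b1, among the 17, entered the test through the nonTx arrays alone. These counts therefore describe the list and support no direction. The summed relative signal of the list was 3908 to 4804 on nonTx arrays and 5238 to 6766 on Tx arrays, the opposite order, with the largest shares from Cd4 and Zap70, whose Tx means were higher. Bcl11b, Cd27, Ctla4 and Foxp3 were well above background on no array. The part of T cells in the member differences was not tested.

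The cytotoxic granule list, whose genes NK cells share with killer T cells, had 7 of 19 tested genes with a lower and 12 with a higher Tx mean (median 0.07, and -0.16 with spike-in scaling). Of all tested genes, 43.7% had a lower Tx mean. The smallest p were those of Tnf (0.62 ± 0.14, limma adjusted p = 0.246), Ccl3 (0.304) and Gzmm (0.53 ± 0.19, 0.329). Ccl3 was above background on 0 nonTx and 3 Tx arrays, which bounds the fold between its means at no less than 1.51 higher in Tx, with overlapping groups. Fasl and Ifng had lower Tx means with an unadjusted p under 0.05 (limma adjusted p = 0.338 and 0.355). Each was above background on 4 nonTx and 0 Tx arrays, with bounds of 1.47- and 1.37-fold lower in Tx. The Ifng groups overlapped, Tx replicate 2 (4.921) lying above nonTx replicate 3 (4.576). Ifng read 5.987, 23.11, 4.576 and 6.034 in nonTx, so its difference and bound lean on nonTx replicate 2. Ccl3, Fasl and Ifng thus entered the test through 1 group alone. Gzma (0.06 ± 0.34), Gzmb (0.07 ± 0.41) and Prf1 (0.03 ± 0.20) differed by less than their errors. Fasl, Ifng, Gzma, Gzmb and Prf1 were named after their values were seen.

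Across the whole array, 54.24% to 57.12% of probes were well above background on nonTx arrays and 51.1% to 55.45% on Tx arrays. Tx replicates 2, 3 and 4 (52.51%, 52.15% and 51.1%) were below every nonTx array, and 0 spots were saturated. All 15 hepatocyte markers were above background on all arrays, with a median of 0.04. B cell, Kupffer cell, neutrophil and dendritic cell lists had medians of -0.02, 0.05, 0.31 and -0.21. All 8 arrays were on 1 slide and in 1 scan, with nonTx in slide row 1 and Tx in slide row 2, so group and slide row cannot be told apart. The 10 spike-in RNAs were higher in Tx after scaling, by 0.06 to 0.37. Scaling to them moved the median of all tested genes from 0.03 to -0.20, and scaling to the array median moved it to 0.13.

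**Figure D5:**
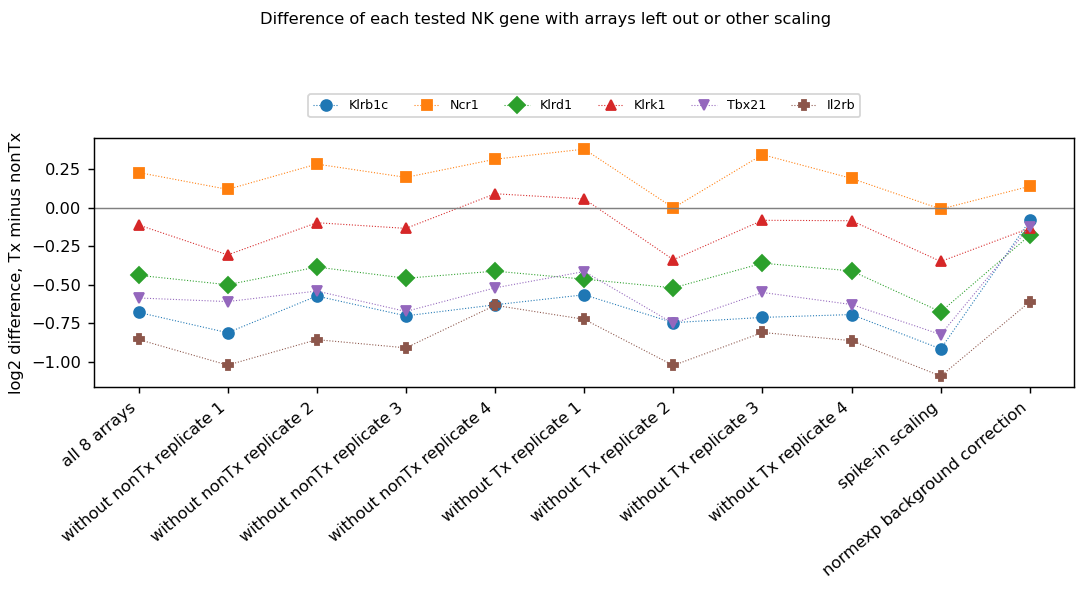
Log2 difference, Tx minus nonTx (vertical axis), of the 6 tested NK genes with all 8 arrays, with each array left out in turn, with spike-in scaling and with normexp background correction (horizontal axis). Il2rb, Klrb1c, Tbx21 and Klrd1 stay below 0 at every point, Klrk1 and Ncr1 cross it, and the last point brings Klrb1c to -0.08 and Tbx21 to -0.12.

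Il2rb, Klrd1, Klrb1c and Tbx21 kept a Tx mean below the nonTx mean with every array left out, and 0 member probes passed the threshold in any of those fits. For Klrd1 and Klrb1c, whose groups did not overlap, leaving out 1 array could not have reversed the direction. A normexp background correction, which adds an offset of 50 to every signal, brought the differences to -0.61 for Il2rb, -0.18 for Klrd1, -0.08 for Klrb1c and -0.12 for Tbx21. Klrk1 turned to 0.09 without nonTx replicate 4 and to 0.06 without Tx replicate 1.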

How the data were processed

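Liver RNA of 4 Tx and 4 nonTx samples was hybridised to 1-colour arrays, with 0.5 ug of RNA labelled for each, per the labels' protocols. Per the file headers, the intensity that the authors deposited for each spot had its background removed by Agilent Feature Extraction 10.7.1.1, while the submitters' processing notes name version 9.1. A deposited matrix repeats those intensities and adds log2 values scaled by the authors, used as an alternative; its 8 columns of detection flags were not used. Control spots were left out, outlier spots (54 to 120 per array) were set to missing, and spots of a probe were averaged. Each array's 75th percentile over 56605 probes was subtracted from its log2 intensities.

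The test took in 30952 probes (34 missing values), those with a signal well above background on 3 or more of the 4 arrays in either group and with 2 or more values in each. Tx was set against nonTx in R 4.3.3 with lmFit and eBayes of limma 3.58.1, using a variance trend and leaving 6 residual degrees of freedom, two-sided, with Benjamini-Hochberg adjustment over all tested probes and a threshold of 0.05; files were read with the package data.table, version 1.17.8. The fit was tested on simulated data, with changes larger than that of any member placed in probes brighter than the median. That test therefore does not cover differences of the members' size or dim probes. A gene is its brightest tested probe. As with Klrb1c and Ncr1, some genes of the other lists entered through 1 group alone, so counts over a list support no direction. A symbol or ID was given for 46119 probes; 43901 of them matched RefSeq through Entrez IDs, which updated 1276 symbols. The array's build (mm9) is not that of RefSeq here, so no probe coordinates are given. Depth is signal over background, and 4 arrays per group limit the precision.

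The members and lists were chosen with earlier results of these data known. Named were all members, up to 3 genes per list with the smallest p, and the 10 genes with the profile most like the members'; Tyrobp, Hcst, Il2rg, Gzma, Gzmb and Prf1 were added after their values were seen. Alternatives were quantile, median, bright-probe and spike-in scaling, the authors' log2 values, normexp (offset 50, on the median signal), other filters, a floor, outlier spots kept, other variance models, array weights, the mean over a gene's probes, a replicate block, leaving out each array, and, added after seeing the data, the 75th percentile over spots. Same-numbered arrays deviated together with correlations of 0.0448, 0.0808, 0.0987 and -0.0109, so the numbers were not taken to pair samples.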

Additional observations from a re-analysis of the deposited data

How the results depend on the processing

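Of the 9 tested member probes, 0 passed the threshold in any of 24 alternatives. Il2rb (-1.09 to -0.61), Klrd1 (-0.68 to -0.18), Klrb1c (-0.92 to -0.08) and Tbx21 (-0.82 to -0.12) kept their direction in every alternative run, with limma adjusted p from 0.129 to 0.774. Klrk1 ran from -0.35 to 0.09 and Ncr1 from -0.01 to 0.38: with arrays left out, Klrk1 was -0.338 to 0.0896 and Ncr1 -0.0019 to 0.379. Klrk1 turned to 0.0896 without nonTx replicate 4 and to 0.0561 without Tx replicate 1, and Ncr1 to -0.0019 without Tx replicate 2 and to -0.0095 with spike-in scaling. The member median of -0.51 was -0.13 with normexp, -0.63 to -0.44 with arrays left out, and otherwise at most -0.41. Probes past the threshold over the whole table, 0 in the analysis reported, were 6 with median scaling, 6 with spike-in scaling, 2 with normexp, 1 without a variance trend, 5 with robust variance, 7 with array weights and 0 to 188 with an array left out, the 188 being without Tx replicate 2. With the replicate block, 1 probe passed and Il2rb had an adjusted p of 0.315, and it changed no member call. A filter on 6 of 8 arrays left Klrb1c and Ncr1 untested. A slide or scan block was not run, since there was 1 slide and 1 scan. Members at background have no direction here.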

Other observations

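Other cell types of the liver gave the following values, with no gene past the threshold in limma's fit. Over all 16495 tested genes, for comparison with the counts here, 9280 had a higher and 7215 a lower Tx mean (median 0.03). Neutrophil markers had 6 of 8 tested genes with a higher Tx mean (median 0.31, but 4 of 8 lower and a median of 0.07 with spike-in scaling): Retnlg, a secreted protein of neutrophils, at 0.90 ± 0.20 (adjusted p = 0.246, every Tx array above every nonTx array) and S100a9, a calcium-binding alarmin, at 0.66 ± 0.23 (0.323), while Csf3r, the receptor for granulocyte colony-stimulating factor, was at -0.51 ± 0.17 (0.314) with every Tx array below. Kupffer cell markers had 11 of 14 with a higher Tx mean (median 0.05, and -0.18 with spike-in scaling), with Lyz2 (lysozyme) at 0.20 ± 0.08, Cd163 (the haemoglobin scavenger receptor) at 0.49 ± 0.24 and Cd5l at 0.27 ± 0.16, and adjusted p of 0.357, 0.399 and 0.468. Dendritic cell markers had 7 of 10 with a lower Tx mean (median -0.21, and -0.45 with spike-in scaling, -0.03 with normexp, -0.12 without Tx replicate 3, -0.33 without Tx replicate 1 and -0.07 without Tx replicate 4), with Ccr9 at -0.40 ± 0.20, Clec9a at -0.40 ± 0.22 and Itgae at -0.36 ± 0.27 (adjusted p = 0.4, 0.438 and 0.551).

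B cell markers were divided, 6 lower and 4 higher by their means (median -0.02, and 0.08 with median scaling). Cr2, the complement receptor of B cells, was at -0.45 ± 0.15 (limma adjusted p = 0.318) and at -0.03 on its other probe, Cd79b at 0.32 ± 0.18 (0.45) and Ebf1 at -0.82 ± 0.47 (0.448), with another Ebf1 probe at 0.49. Of hepatocyte markers, Ttr (transthyretin) was at -0.37 ± 0.07 (adjusted p = 0.181) on its brighter probe and 0.09 on the other, Tat at 0.26 ± 0.19 (0.52) and Fgb at -0.13 ± 0.09 (0.524).

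Probes of 1 gene disagreed in sign for Stat5a (1.36 and -0.27), Il15ra (1.14 to -0.17 over 3 probes), Ikzf3 (-1.10 to 0.24 over 3 probes), Ebf1 (-0.82 and 0.49) and Ttr (-0.37 and 0.09), so the values given for these genes are those of the probe and not of every transcript.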
